A study of Mus musculus with 23 samples.

Results

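Cytochrome P450 genes other than the Cyp4a genes and the bile acid and sterol genes *Cyp7a1*, *Cyp7b1*, *Cyp8b1* and *Cyp27a1* are described here in the livers and tumors of mice with colorectal cancer. A gene was taken when its symbol was Cyp followed by a family number, subfamily letters and a gene number, when it was protein coding, and when it had 10 or more counts in 5 or more of the 14 livers. Of 84 protein-coding genes with such a symbol, 60 in 24 subfamilies were kept, out of 48897 genes in the table. The 24 genes under the count minimum included 6 with 0 counts in every liver, and none of the 24 averaged over 3.46 RPKM in control liver (*Cyp11b1*, whose counts came from mouse C6) or over 0.108 RPKM in pre-metastatic liver. RPKM is the count of a gene divided by its length in kilobases and by the total count of the library, on the usual per-million scale, and levels of different genes are compared on that scale only.

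The study injected CT26 cells, a mouse colon carcinoma line, into the cecal wall of male BALB/c mice aged 4 to 6 weeks, and poly(A) RNA was sequenced 3 weeks later. The liver of the tumor-bearing mice (pre-metastatic liver, n = 9: M1, M2, M4, M5, M6, M7, M8, M10 and M12) and the primary colon tumor of the same 9 mice were set against the liver of sham-operated mice of the same strain and sex, which received medium without serum or cells (control liver, n = 5: C1, C4, C5, C6 and C7). No mouse carried an engineered allele by the labels or the methods, and the tumors descend from 1 cell line. Total counts were 51064615 to 60393702 in control liver, 44587556 to 79773163 in pre-metastatic liver and 47005276 to 70884436 in the tumors. Each liver held the RNA of the whole tissue, so fewer hepatocytes and less of a transcript per hepatocyte cannot be told apart. The 8 hepatocyte markers, among them *Alb* and *Apoa1*, summed to 55123 to 66159 RPKM in control liver and to 47829 to 100835 RPKM in pre-metastatic liver. In the test of the livers described below, 1 of the 8 was lower (*Hnf4a*) and 2 were higher, so the sum does not measure hepatocyte content alone.

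Cytochrome P450 enzymes are heme proteins that insert an oxygen atom into their substrates, with electrons that the reductase *Por* passes on from NADPH. In the liver, families 1 to 3 act mainly on drugs and other foreign compounds, and their transcription is driven by the nuclear receptors CAR (*Nr1i3*) and PXR (*Nr1i2*), by the aryl hydrocarbon receptor (*Ahr*), and by liver factors such as *Hnf4a*. Other members have fixed substrates in the body: bile acids, arachidonic acid, leukotrienes, retinoic acid, vitamin D and steroid hormones. Inflammation is known to lower many hepatic P450 transcripts, and several are set by growth hormone, by the position of the hepatocyte in the lobule and by the time of day.

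The bases just before the transcription start are shown for 5 members that the results turn on, read from RefSeq (GRCm38.p6): *Cyp2b10* and *Cyp3a11*, which fell in pre-metastatic liver, *Cyp2c70*, which rose, and *Cyp2d10* and *Cyp2d40*, members of the Cyp2d cluster on chromosome 15 that moved in opposite directions. Each is 250 bases, 5′ to 3′ on the strand of the gene, ending at the base before the start. The start of *Cyp2d10* in the authors' table lies 22 bases before the RefSeq start. Capitals mark matches on either strand to 5 motifs: AGTTCA (core bound by PXR and CAR), CAAAGTCCA (HNF4), TTATGTAA (D-box), TTCNNNGAA (STAT) and GCGTG (core bound by the aryl hydrocarbon receptor). The motifs may overlap each other.
Cyp2b10 (chr7:25897408-25897657, plus strand): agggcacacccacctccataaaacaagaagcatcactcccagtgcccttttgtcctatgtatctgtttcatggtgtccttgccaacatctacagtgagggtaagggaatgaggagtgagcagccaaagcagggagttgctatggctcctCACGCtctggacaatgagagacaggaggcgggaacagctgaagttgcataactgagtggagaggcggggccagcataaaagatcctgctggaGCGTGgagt
Cyp3a11 (chr5:145879855-145880104, minus strand): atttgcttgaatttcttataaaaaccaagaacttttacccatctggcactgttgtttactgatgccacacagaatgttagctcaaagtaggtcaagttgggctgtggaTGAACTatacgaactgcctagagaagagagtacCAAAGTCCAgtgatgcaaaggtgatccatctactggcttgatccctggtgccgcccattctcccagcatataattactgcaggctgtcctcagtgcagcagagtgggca
Cyp2c70 (chr19:40187287-40187536, minus strand): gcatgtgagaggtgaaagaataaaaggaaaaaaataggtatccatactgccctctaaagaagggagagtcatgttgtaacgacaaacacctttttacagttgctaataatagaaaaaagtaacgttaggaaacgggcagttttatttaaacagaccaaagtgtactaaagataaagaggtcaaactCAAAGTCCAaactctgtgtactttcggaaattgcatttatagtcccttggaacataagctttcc
Cyp2d10 (chr15:82407195-82407444, minus strand): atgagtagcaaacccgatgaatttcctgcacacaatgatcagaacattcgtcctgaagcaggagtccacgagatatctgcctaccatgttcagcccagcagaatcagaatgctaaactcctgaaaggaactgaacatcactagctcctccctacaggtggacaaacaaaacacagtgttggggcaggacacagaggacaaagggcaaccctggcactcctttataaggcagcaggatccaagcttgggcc
Cyp2d40 (chr15:82764123-82764372, minus strand): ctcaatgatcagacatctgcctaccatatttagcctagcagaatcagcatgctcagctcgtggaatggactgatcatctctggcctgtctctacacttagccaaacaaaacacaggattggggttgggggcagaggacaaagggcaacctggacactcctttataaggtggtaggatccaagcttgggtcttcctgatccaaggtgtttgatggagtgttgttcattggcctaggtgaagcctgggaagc

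Of the 60 members, 50 had a promoter in the table, with 55 windows in all since some genes have several starts, and the same 250 bases were searched in 32851 windows of all genes. The HNF4 motif stood in 6 windows of members (10.9%) and in 0.384% of all windows. It lay 109 to 101 bases before the start of *Cyp3a11* and 64 to 56 bases before that of *Cyp2c70*, so a gene that fell and a gene that rose both held it. The other windows were those of *Cyp2c40*, *Cyp2c67*, *Cyp2c68* and *Cyp2c69*, neighbors whose transcripts share much of their sequence. AGTTCA stood in 14.5% of the members' windows and 11.8% of all windows, GCGTG in 20% and 28.2%, TTCNNNGAA in 3.64% and 7.02%, and TTATGTAA in 0 of 55 and 0.819%. *Cyp3a11* held AGTTCA 142 to 137 bases before its start, as the reverse strand. In the windows of *Cyp2d10* and *Cyp2d40*, 145 of 190 bases were identical (76.3%) when the first was set against the second without gaps, displaced by 60 bases.

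Many members lie in clusters of recent duplicates whose reads can be shared. Among GENCODE transcripts, 23 of 59 members matched shared more than 10% of their 50-base words with another Cyp gene, and 17 shared none. The share was 60.3% for *Cyp2c40*, 54.3% for *Cyp2c69*, 52.8% for *Cyp2c67*, 43.3% for *Cyp2c68*, 38.01% for *Cyp2a4* and 37.03% for *Cyp2a5*, so values of these genes are less certain. How far shared reads altered their counts was not tested. Among genes named as changed below, it was 35.2% for *Cyp2d10*, 30.1% for *Cyp2c37*, 30.02% for *Cyp3a59*, 26.8% for *Cyp3a25*, 17.4% for *Cyp4f16* and 14.5% for *Cyp2d40*, against 7.703% for *Cyp2b10*, 6.73% for *Cyp3a11* and 0% for *Cyp2c70*. Words were pooled over all transcripts of a gene, so many or long transcripts lower the share. *Cyp3a11* had 5040 words but a length of 2053 bases in the authors' table, so its share may be too low.

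Libraries that stood apart bear on some members. Control liver C6 held transcripts of the adrenal cortex: of 8 markers listed after the data had been seen, 7 were higher in C6 than in each of the other 13 livers, among them the hormone synthesis genes *Hsd3b1* (29.7 against at most 0.077 RPKM), *Star* (16.2 against at most 0.851) and *Cyp11b1* (17.3 against at most 0.007802), and the exception was *Mrap*. None of the 8 was at 0 in every liver. The member *Cyp21a1*, the steroid 21-hydroxylase of the adrenal cortex, was at 30.1 RPKM in C6, and results that rest on C6 are given with and without it. A clock index, computed from the standardized levels of 6 circadian genes (the mean of *Ciart*, *Dbp* and *Per3*, less the mean of *Clock*, *Arntl* and *Npas2*), was below 0 in 9 livers (4 control, 5 pre-metastatic, here early phase) and above 0 in 5 (C7, M1, M2, M10 and M12, here late phase). These are sets of samples and not conditions of the study.

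Summed over the 60 members, the level was 9812 to 17291 RPKM in control liver (12507 ± 2940 SD, n = 5) and 5046 to 13400.0 RPKM in pre-metastatic liver (8652 ± 2479.8 SD, n = 9). The groups overlapped, since M2 (13400.0 RPKM), M10 (11134 RPKM) and M5 (9913 RPKM) lay within the control range, and M6 was lowest. *Cyp2e1*, which oxidizes ethanol and acetaminophen, made up 33.96% to 54.1% of the sum in control liver and 37.3% to 52.1% in pre-metastatic liver. *Cyp3a11*, a main drug-metabolizing enzyme, made up 7.76% to 31.1% and 0.675% to 5.72%. Without these 2 genes the sum was 4721 ± 822 RPKM in control liver and 4496 ± 1311 RPKM in pre-metastatic liver. Among subfamilies, the sum of the 5 Cyp3a genes went from 2827 ± 2051 to 472 ± 338 RPKM, that of the 7 Cyp2d genes from 1671 ± 113 to 1361 ± 324 RPKM, and that of the 13 Cyp2c genes from 1216 ± 452 to 1562 ± 464 RPKM. These sums were not tested.

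**Figure D1:**
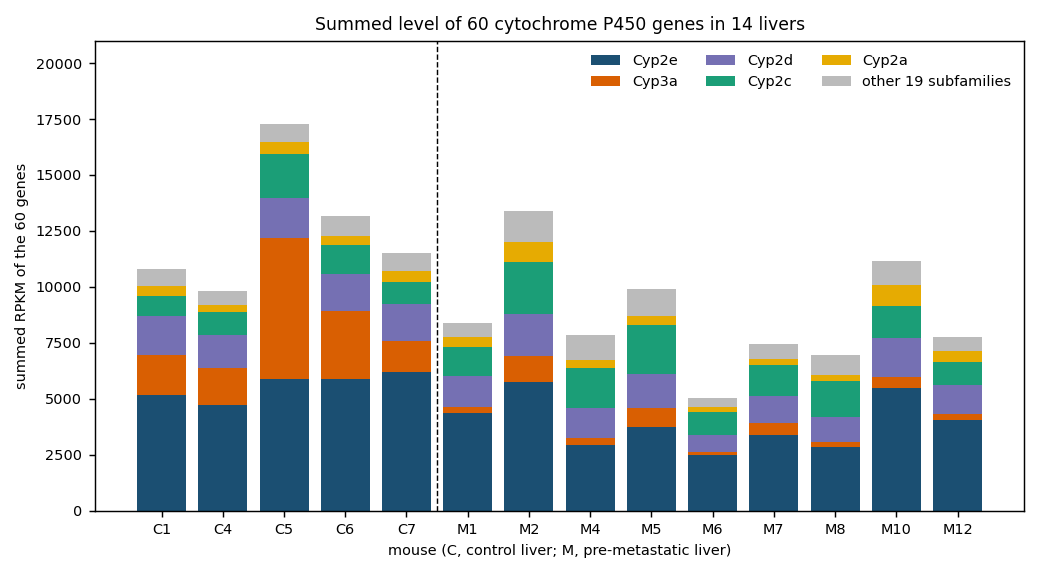
Stacked bars of the summed RPKM of the 60 members in each of 14 livers, with colors for the 5 subfamilies of highest sum and gray for the other 19, and a dashed line between control (C) and pre-metastatic (M) livers. The Cyp3a part falls from a mean of 2827 to 472 RPKM, and the tallest pre-metastatic bar (M2, 13400.0 RPKM) is above 4 of the 5 control bars.

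The first comparison asked which members differ between the liver of tumor-bearing mice and that of sham-operated mice. All 60 members were tested in the edgeR fit of 16987 genes: 10 were lower in pre-metastatic liver (16.7%, against 13.3% of all genes tested), 11 were higher (18.3%, against 17.7%), and 39 did not pass an adjusted p of 0.05. In each direction the share of members was near that of all genes. By size, 19 members (31.7%) passed with a change of at least 1 on the log2 scale in either direction, against 12.1% of all genes, and the SD of the log2 fold changes was 1.65 over the members and 0.88 over all genes tested. The 19 include *Cyp2c69*, which rests on C6, and *Cyp4f18*. The SD over the members includes these 2 and *Cyp21a1*, which also rests on C6. The median log2 fold change was -0.21 over the members and 0.01 over all genes. The RPKM values of the livers did not overlap for 6 members that were lower (10%, against 6.09% of all genes) and 6 that were higher (10%, against 4.85%), with the same counts when C6 was left out. One of the higher members, *Cyp4f18*, reached 10 counts in none of the control livers and in 8 pre-metastatic livers, so it entered the test only through the group in which it was high. Without it, 10 members were higher, 5 of them without overlap. Without C6, 11 members were lower and 9 higher, and the share of all genes was not computed for that fit. Scaled by library totals only, as RPKM is, the split was 15 lower (against 16.5% of all genes) and 9 higher (against 14%). Among the 9 early-phase livers, 16 members were lower (against 10.7% of all genes) and 10 higher (against 14.4%), including all 10 of the lower and 8 of the 11 higher members found over all 14 livers (*Cyp4f18* among the 8). One of these lower members, *Cyp2c69*, rests in both fits on C6, itself an early-phase liver. Over all livers without C6 its log2 fold change was 0.13 (edgeR, adjusted *p* = 0.838).

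**Figure D2:**
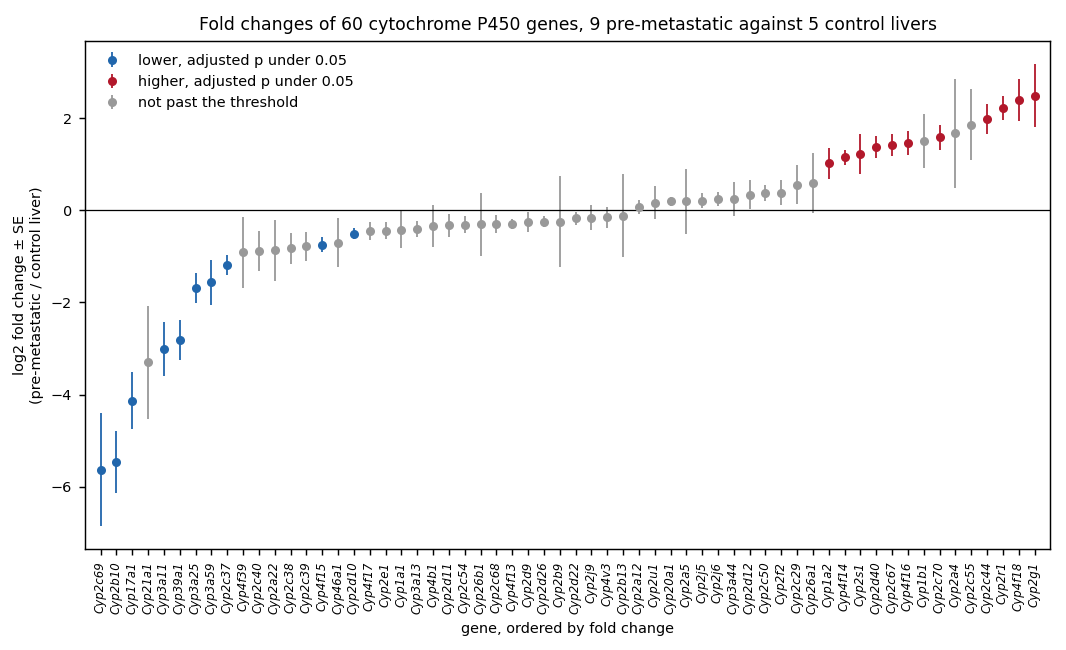
Log2 fold change (pre-metastatic over control liver, edgeR) with its SE for each of the 60 members, ordered by size, in blue where lower and red where higher at an adjusted p under 0.05 and in gray otherwise. Falls reach -5.63 and rises 2.49, and *Cyp2c69* and *Cyp21a1* at the left rest on control liver C6. *Cyp4f18* is drawn as well, although it entered the test only through the pre-metastatic livers.

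The drug-metabolizing genes *Cyp2b10*, *Cyp3a11* and *Cyp3a25* were lower in pre-metastatic liver. *Cyp2b10*, the gene by which CAR activity is usually read (chr7:25897658-25926624, plus strand), was at 24.5, 9.597, 45.2, 12.9 and 2.61 RPKM in control livers C1, C4, C5, C6 and C7, and at 0.0534 to 1.46 RPKM (median 0.339) in pre-metastatic liver. Every pre-metastatic liver lay below every control liver (log2 fold change -5.47 ± 0.67 (SE), adjusted *p* = 6.55e-05). *Cyp3a11*, a PXR target and the counterpart of human CYP3A4 (chr5:145854607-145879854, minus strand), was at 1245, 1219.7, 5376, 2359 and 892 RPKM in the control livers and at 34.1 to 725 RPKM (median 149) in pre-metastatic liver. The groups again did not overlap (log2 fold change -3.00 ± 0.59 (SE), adjusted *p* = 0.00152), with C5 far above the other control livers and M6 lowest. *Cyp3a25*, of the same cluster (chr5:145977194-146009644, minus strand), was at 500.5, 400.3, 895, 629 and 430.1 RPKM in control liver and at 67.04 to 396 RPKM (median 171) in pre-metastatic liver, also without overlap (log2 fold change -1.69 ± 0.32 (SE), adjusted *p* = 0.00113).

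Not every gene of these subfamilies fell. Of 5 Cyp3a members, 3 passed the test, all lower, the third being *Cyp3a59* (log2 fold change -1.57 ± 0.49 (SE), adjusted *p* = 0.0231), whose call was lost without C5 (-1.23, adjusted *p* = 0.0887) and whose level in M2 (8.12 RPKM) lay above 4 of 5 control livers. *Cyp3a13* (log2 fold change -0.40 ± 0.18) and *Cyp3a44* (0.25 ± 0.37) did not pass. Of 3 Cyp2b members, *Cyp2b10* alone passed. The receptors that act on these genes did not pass the test either: the log2 fold change was -0.36 ± 0.33 for *Nr1i3* (adjusted *p* = 0.443) and -0.28 ± 0.26 for *Nr1i2* (adjusted *p* = 0.44). In the early-phase livers both were lower, by edgeR, at -1.04 (adjusted *p* = 0.00125) and -0.75 (adjusted *p* = 0.00148). With clock phase as a term over all livers, *Nr1i3* passed (-0.83, adjusted *p* = 0.00289) and *Nr1i2* did not (-0.48, adjusted *p* = 0.162).

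**Figure D3:**
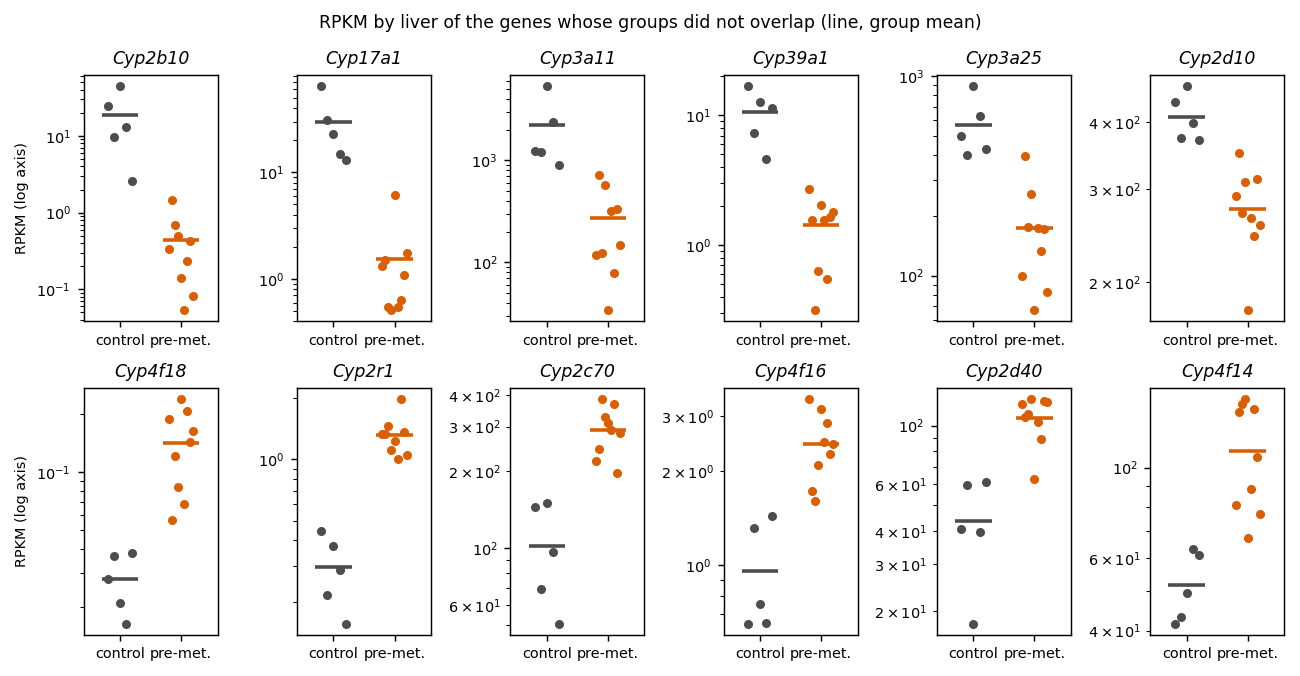
RPKM on a log axis of the 6 lower (top row) and 6 higher (bottom row) members whose 5 control livers (gray) and 9 pre-metastatic livers (orange) did not overlap, with 1 point per liver and a line at the group mean. *Cyp2b10* averaged 18.9 RPKM in control and 0.435 RPKM in pre-metastatic liver, and *Cyp2c70* 102 and 292 RPKM. *Cyp4f18*, among the higher, passed the count minimum only through the pre-metastatic livers.

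The 13 Cyp2c members, most of them in a cluster on chromosome 19 and many acting on arachidonic acid, moved in both directions: 2 were lower, 3 were higher and 8 did not pass. *Cyp2c70*, which makes the muricholic acids of rodent bile (chr19:40153361-40187286, minus strand), was at 145, 69.05, 150.2, 96.9 and 50.6 RPKM in the control livers and at 198 to 385 RPKM (median 291) in pre-metastatic liver. Its groups did not overlap (log2 fold change 1.58 ± 0.27 (SE), adjusted *p* = 0.000578). *Cyp2c44*, an arachidonic acid epoxygenase (chr19:44005022-44029256, minus strand), was at 2.47, 2.81, 2.09, 2.47 and 6.098 RPKM in control liver and at 4.41 to 19.7 RPKM (median 12.01) in pre-metastatic liver. The groups overlapped, because C7 was above the other control livers and above M6 and M7 (log2 fold change 1.98 ± 0.33 (SE), adjusted *p* = 0.000504). *Cyp2c67* was at 74.1, 87.6, 91.6, 100 and 75.2 RPKM in control liver and at 74.8 to 327 RPKM (median 225) in pre-metastatic liver, with M6 alone inside the control range (log2 fold change 1.42 ± 0.24 (SE), adjusted *p* = 0.000601). *Cyp2c37*, which turns arachidonic acid into 12-HETE, fell from 72.5 ± 28.2 to 29.98 ± 8.97 RPKM (SD, n = 5 and 9), and its groups overlapped at C1 (38.4 RPKM) against M2 and M10 (log2 fold change -1.19 ± 0.21 (SE), adjusted *p* = 0.000867). *Cyp2c69* was counted as lower (log2 fold change -5.63 ± 1.22 (SE), adjusted *p* = 0.00301), but its 38.2 RPKM in C6 stood against 0.0514 to 0.248 RPKM in the other control livers, and without C6 the value was 0.13 (adjusted *p* = 0.838). The Cyp2c cluster members *Cyp2c40* (11.4 against at most 1.63 RPKM in the other control livers) and *Cyp2c68* (109 against at most 52.2) were also highest in C6.

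Among the 7 Cyp2d members, which oxidize many drugs and steroids, 1 was lower, 1 was higher and 5 did not pass. *Cyp2d10* (chr15:82402846-82407216, minus strand) was at 437, 374, 469, 398 and 371 RPKM in control liver and at 177 to 351 RPKM (median 270.4) in pre-metastatic liver. *Cyp2d40* (chr15:82759833-82764122, minus strand) was at 40.8, 59.5, 17.96, 39.6 and 61.4 RPKM in control liver and at 62.8 to 126 RPKM (median 110.3) in pre-metastatic liver. For both genes the groups did not overlap, and they moved in opposite directions (log2 fold change -0.51 ± 0.12 (SE), adjusted *p* = 0.00429 and 1.37 ± 0.23 (SE), adjusted *p* = 0.000609). *Cyp2d9*, a steroid hydroxylase known to be higher in male than in female liver, averaged 694 ± 98.01 RPKM in control and 560.0 ± 196 RPKM in pre-metastatic liver, with M6 lowest at 214 RPKM (log2 fold change -0.26 ± 0.22 (SE), adjusted *p* = 0.397), and did not pass. *Cyp2d26*, among the 8 members of highest level in control liver, had a log2 fold change of -0.25 ± 0.12 and did not pass over all livers (early-phase livers, -0.38, adjusted *p* = 0.0227).

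The 7 Cyp4f members include enzymes that inactivate leukotriene B4, a neutrophil attractant. Of the 7, 3 were higher, 1 lower and 3 did not pass, but 1 of the higher, *Cyp4f18*, entered the test only through the group in which it was high. *Cyp4f14*, a leukotriene B4 hydroxylase of the liver (chr17:32905070-32917351, minus strand), was at 41.6, 43.2, 49.4, 63.2 and 61.3 RPKM in control liver and at 67.2 to 147 RPKM (median 106) in pre-metastatic liver, without overlap (log2 fold change 1.15 ± 0.17 (SE), adjusted *p* = 0.000224). *Cyp4f16* (chr17:32536545-32551798, plus strand) was at 0.653, 1.32, 0.751, 0.654 and 1.44 RPKM in control liver and at 1.61 to 3.39 RPKM (median 2.45) in pre-metastatic liver, also without overlap (log2 fold change 1.46 ± 0.26 (SE), adjusted *p* = 0.000826). Both were higher in every tumor-bearing mouse than in any control mouse. *Cyp4f18*, the member known from neutrophils (chr8:71988482-72009660, minus strand), was at 0.0279, 0.03696, 0.0211, 0.0165 and 0.0383 RPKM in control liver and at 0.0567 to 0.239 RPKM (median 0.144) in pre-metastatic liver, on 2 to 5 counts per control and 6 to 32 counts per pre-metastatic liver. It passed the count minimum through the pre-metastatic livers alone, where it was high, so its fold change and test are not given. Beside it, 7 of the 8 leukocyte markers were higher in pre-metastatic liver, none was at 0 in every liver, and their sum was 10.5 to 27.6 RPKM in control and 25.7 to 148 RPKM in pre-metastatic liver, and its part in the *Cyp4f18* difference was not tested. *Cyp4f15*, which lies between *Cyp4f16* and *Cyp4f14* on chromosome 17, was lower, at 67.5, 60.7, 77.1, 59.7 and 51.6 RPKM in control liver and 22.8 to 55.2 RPKM (median 35.6) in pre-metastatic liver, where M2 alone was inside the control range (log2 fold change -0.75 ± 0.16 (SE), adjusted *p* = 0.00287).

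Of the retinoid, vitamin D and steroid list of 10 genes, 7 were members, and 2 were lower and 1 higher, while *Cyp24a1*, *Cyp27b1* and *Cyp11a1* were under the count minimum. *Cyp17a1*, the 17α-hydroxylase and lyase of androgen synthesis (chr19:46667165-46673000, minus strand), was at 64.97, 31, 23.1, 14.8 and 13.1 RPKM in control livers C1, C4, C5, C6 and C7, and at 0.509 to 6.096 RPKM (median 1.09) in pre-metastatic liver. The groups did not overlap (log2 fold change -4.13 ± 0.62 (SE), adjusted *p* = 0.000237), and C6, the liver with adrenal transcripts, was second lowest among the controls. *Cyp39a1*, which 7α-hydroxylates 24-hydroxycholesterol (chr17:43667372-43751431, plus strand), was at 16.9, 7.38, 12.8, 4.64 and 11.5 RPKM in control liver and at 0.314 to 2.69 RPKM (median 1.57) in pre-metastatic liver, without overlap (log2 fold change -2.81 ± 0.44 (SE), adjusted *p* = 0.000308). *Cyp2r1*, the main 25-hydroxylase of vitamin D (chr7:114550123-114565621, minus strand), was at 0.445, 0.215, 0.374, 0.286 and 0.156 RPKM in control liver and at 0.998 to 1.98 RPKM (median 1.32) in pre-metastatic liver. It was higher in all 9 tumor-bearing mice than in any control (log2 fold change 2.21 ± 0.26 (SE), adjusted *p* = 5.07e-05), on 37 to 116 counts per control and 255 to 383 counts per pre-metastatic liver.

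The retinoic acid hydroxylases did not pass: *Cyp26a1* had a log2 fold change of 0.59 ± 0.66 with pre-metastatic values of 0.728 to 12 RPKM (median 2.89), and *Cyp26b1* of -0.31 ± 0.69. The cholesterol 24-hydroxylase of the brain, *Cyp46a1*, was low in all livers and did not pass either (log2 fold change -0.70 ± 0.53 (SE), adjusted *p* = 0.341). *Cyp21a1* was just outside the threshold (log2 fold change -3.3 ± 1.22 (SE), adjusted *p* = 0.0515) on the strength of C6. The other control livers were at 0.0189 to 0.2497 RPKM and the pre-metastatic livers at 0.0195 to 1.398 RPKM (median 0.431), and without C6 the value turned to 2.28 (adjusted *p* = 0.0851).

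The aryl hydrocarbon receptor targets had 1 of 3 higher. *Cyp1a2*, which metabolizes caffeine (chr9:57676937-57683655, minus strand), was at 61.8, 71.98, 185, 126 and 119 RPKM in control liver and at 76.1 to 439.8 RPKM (median 235) in pre-metastatic liver. The groups overlapped and the call was marginal (log2 fold change 1.02 ± 0.34 (SE), adjusted *p* = 0.0349), since it was lost when any of C1, C4, C6, C7, M2, M4, M5, M8 or M10 was left out (adjusted p of 0.05 to 0.0905). By edgeR the call was also lost among early-phase livers (adjusted *p* = 0.12), with clock phase as a term (adjusted *p* = 0.0589) and with library totals only (adjusted *p* = 0.0619). Limma on log2(RPKM + 1) gave an adjusted p of 0.0878. *Cyp1a1* (-0.42 ± 0.40) and *Cyp1b1* (1.5 ± 0.58 (SE), adjusted *p* = 0.0625) did not pass in edgeR, and DESeq2 gave *Cyp1b1* an adjusted p of 0.016. *Ahr* itself had a log2 fold change of -0.15 ± 0.19. A pair of low members rose as well: *Cyp2g1*, known from olfactory mucosa, from 0.261 ± 0.138 to 1.43 ± 1.19 RPKM (SD; log2 fold change 2.49 ± 0.69 (SE), adjusted *p* = 0.0128), and *Cyp2s1*, known from epithelia outside the liver, from 0.394 ± 0.203 to 0.833 ± 0.413 RPKM (log2 fold change 1.22 ± 0.43 (SE), adjusted *p* = 0.0428). The groups of *Cyp2g1* overlapped, with M7 (0.108 RPKM) below every control, and its call was lost among early-phase livers (1.31, adjusted *p* = 0.177). The call of *Cyp2s1* was lost without C1 (adjusted *p* = 0.104) and under several other settings. Beside these rises, 3 of 5 cholangiocyte markers, of the bile duct epithelium, were higher, none was at 0 in every liver, and their sum was 14.4 to 21.3 RPKM in control and 37.5 to 134 RPKM in pre-metastatic liver, and its part in the *Cyp2s1* difference was not tested. *Spp1* had the most counts of the 5 in every liver (929 to 1521 in control, 2392 to 13991 in pre-metastatic liver). It also had 108486 to 225184 counts in the tumors, so the sum does not measure bile duct epithelium alone.

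Over all livers the lobular lists held calls in both directions, the upward one being the marginal call of *Cyp1a2*. Of 7 pericentral members, the hepatocytes around the central vein being the main site of P450 expression, *Cyp3a11* and *Cyp2c37* were lower, *Cyp1a2* was higher, and *Cyp2e1*, *Cyp2a5*, *Cyp2c29* and *Cyp2c50* did not pass, with a median log2 fold change of 0.20 beside 0.01 over all genes. *Cyp2e1* (chr7:140763832-140774981, plus strand), the most abundant member, was at 5145, 4712, 5872, 5899 and 6212 RPKM in control liver and at 2474 to 5755 RPKM (median 3725) in pre-metastatic liver. M2 and M10 lay within the control range and the other 7 below it (log2 fold change -0.44 ± 0.18 (SE), adjusted *p* = 0.0802). The call depended on the setting. *Cyp2e1* was called lower by DESeq2 (-0.45, adjusted *p* = 0.0431) and by edgeR with clock phase as a term (-0.63, adjusted *p* = 0.00397). It also passed in edgeR with library totals only (adjusted *p* = 0.047) and without M2 or without M10. *Cyp2c29* was at 202 to 1262 RPKM (median 591) in pre-metastatic liver and at 237, 281, 1055, 449 and 225 RPKM in control liver, where C5 stood apart (log2 fold change 0.55 ± 0.42 (SE), adjusted *p* = 0.341, and 1.14, adjusted *p* = 0.0413, without C5). *Cyp2c50* (0.38 ± 0.17 (SE), adjusted *p* = 0.101) and the periportal gene *Cyp2f2* (0.38 ± 0.27 (SE), adjusted *p* = 0.3) did not pass. *Cyp2a12* averaged 268 ± 39.5 and 270.3 ± 68.2 RPKM (log2 fold change 0.08 ± 0.15 (SE), adjusted *p* = 0.736).

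Several members, known to differ with the time of day or between the sexes, lay apart by the clock index in pre-metastatic liver. *Cyp2a5*, the coumarin hydroxylase, ranged over 18.8 to 103 RPKM among 5 early-phase and 165 to 535 RPKM among 4 late-phase pre-metastatic livers, ranges that did not overlap, against 82.1 to 333 RPKM in the 4 early-phase controls and 159 RPKM in C7. Over all livers its log2 fold change was 0.20 ± 0.70 (SE), adjusted *p* = 0.857, and among early-phase livers it was lower (-1.83 ± 0.46, adjusted *p* = 0.0155). With clock phase as a term in the fit of all livers it did not pass (-1.31, adjusted *p* = 0.0917). *Cyp2e1* had separate ranges too, 2474 to 3725 RPKM in early-phase and 4033 to 5755 RPKM in the late-phase pre-metastatic livers, and was lower among early-phase livers (-0.77 ± 0.16, adjusted *p* = 0.00807). The late phase held 1 control liver, so no comparison within it was possible. Of 7 genes listed as higher in female liver, 6 were members and *Cyp3a16* was under the count minimum, and *Cyp2c69*, which rested on C6, was the one called. *Cyp2b9* was at 0.9002, 3.92, 0.8105, 1.55 and 93.4 RPKM in control livers C1, C4, C5, C6 and C7 and at 3.38 to 44.5 RPKM (median 9.81) in pre-metastatic liver, so that the late-phase liver C7 was far above all others. *Cyp2a4* (C7 at 26.3 RPKM, other controls at most 3.17) and *Cyp2b13* (C7 at 3.66, other controls at most 0.437) were also highest in C7 among the controls. Without C7 the log2 fold change was 3.18 for *Cyp2b9* (adjusted *p* = 0.00918), 3.65 for *Cyp2a4* (adjusted *p* = 0.0467) and 2.38 for *Cyp2b13* (adjusted *p* = 0.0422), where none of them passed over all livers (adjusted *p* = 0.875, 0.303 and 0.935). That fit set early-phase controls alone against pre-metastatic livers of both phases, so phase and tumor cannot be told apart in it. Among early-phase livers only, edgeR gave 1.86 for *Cyp2b9* (adjusted *p* = 0.0209). *Cyp2a4* (1.93, adjusted *p* = 0.225) and *Cyp2b13* (1.36, adjusted *p* = 0.223) did not pass there.

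**Figure D4:**
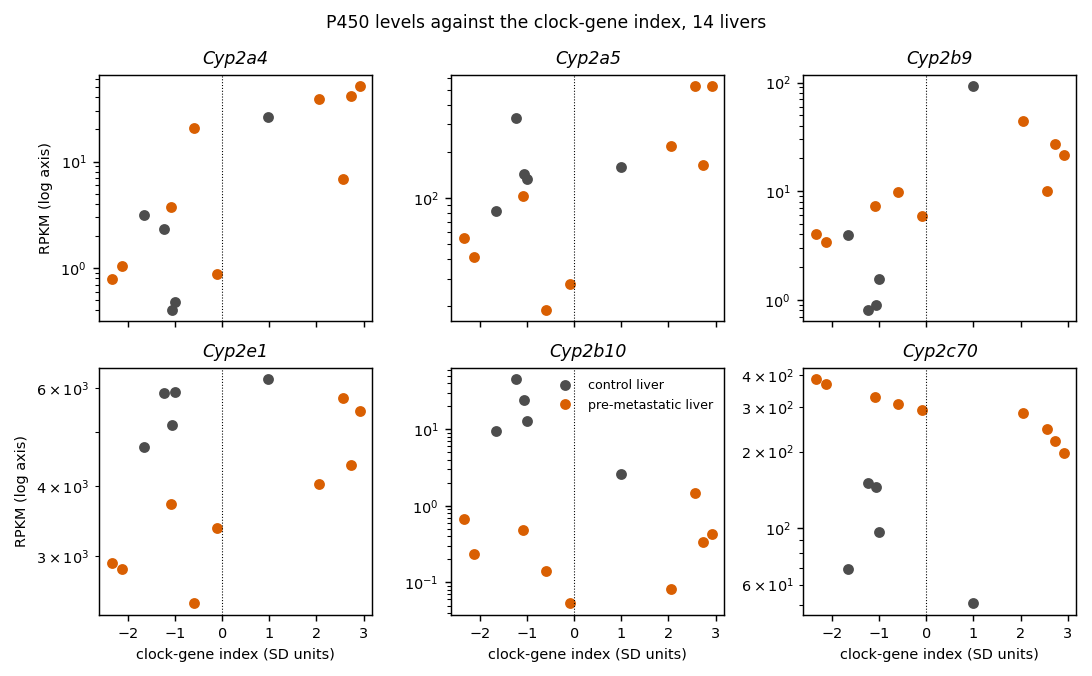
RPKM (log axis) of 6 members against the clock-gene index in SD units for 5 control (gray) and 9 pre-metastatic (orange) livers, with a dotted line at 0 between the early and late phase. *Cyp2a4*, *Cyp2a5*, *Cyp2b9* and *Cyp2e1* are mostly higher to the right of the line in pre-metastatic liver. *Cyp2b10* (lower) and *Cyp2c70* (higher) differ between the groups to the left of it. To the right, C7 is the only control liver, so the groups cannot be compared there.

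Inflammation markers of the hepatocyte stood beside these changes. All 6 acute phase genes, among them *Saa1* and *Hp*, were higher in pre-metastatic liver, none was at 0, and their sum was 2404 to 7558 RPKM in control and 9840 to 38481 RPKM in pre-metastatic liver without overlap. The 3 pre-metastatic livers with the lowest acute phase sums (M10, M2 and M5, at 9840 to 11708 RPKM) had the 3 highest summed P450 levels (11134, 13400.0 and 9913 RPKM). Of these, M10 and M2 were late-phase livers by the clock index and M5 was an early-phase liver. M7, with the highest acute phase sum, had a summed P450 level of 7430.1 RPKM, and M6, with the lowest P450 sum, had an acute phase sum of 22577 RPKM. The part of inflammation in the P450 differences was not tested, nor was that of clock phase in the summed levels.

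The genes that serve P450 enzymes were taken from a list of 43 electron donors, receptors and transcription factors, and heme genes, of which 42 were tested (*Ahrr* was not): 8 were lower (against 13.3% of all genes) and 6 higher (against 17.7%). Among electron donors, *Cyb5r3*, the reductase of cytochrome b5, was at 93.2, 103, 119, 105 and 99.6 RPKM in control liver and at 159.6 to 219 RPKM in pre-metastatic liver, without overlap (0.94 ± 0.08 (SE), adjusted *p* = 6.29e-06), and *Cyb5b*, a mitochondrial cytochrome b5, was higher as well (0.66 ± 0.15 (SE), adjusted *p* = 0.00332). *Por*, on which all microsomal P450 enzymes depend, was at 159 to 325 RPKM in control and 27.4 to 216 RPKM in pre-metastatic liver and did not pass over all livers (-1.13 ± 0.48 (SE), adjusted *p* = 0.0888). By phase, it ranged over 27.4 to 71.9 RPKM in the 5 early-phase livers and 80.5 to 216 RPKM in the late-phase pre-metastatic livers, and among early-phase livers its log2 fold change was -2.34 (adjusted *p* = 0.00136). Of the transcription factors, *Foxa2* (-1.32 ± 0.28 (SE), adjusted *p* = 0.0027), *Foxa1* (-0.73 ± 0.23 (SE), adjusted *p* = 0.0231) and *Hnf4a* (-0.70 ± 0.20 (SE), adjusted *p* = 0.0153) were among those lower, and the glucocorticoid receptor *Nr3c1* (0.56 ± 0.14 (SE), adjusted *p* = 0.00883) and *Stat5b* (0.54 ± 0.15 (SE), adjusted *p* = 0.0113), which carries the growth hormone signal, were higher. The call of *Foxa1* was lost without C5 or without C6 and that of *Hnf4a* without C5. With limma on log2(RPKM + 1), the calls of *Nr3c1* (adjusted *p* = 0.0528) and *Stat5b* (adjusted *p* = 0.0836) were lost, and that of *Stat5b* also with library totals only (adjusted *p* = 0.0507). In heme metabolism, the biliverdin reductases moved apart, with *Blvrb* lower (-1.15 ± 0.17 (SE), adjusted *p* = 0.000248) and *Blvra* higher (0.54 ± 0.12 (SE), adjusted *p* = 0.00389). Beside them, all 3 erythroid markers were higher, none was at 0 in every liver, and their sum was 179 to 401 RPKM in control and 474 to 1025 RPKM in pre-metastatic liver, and its part in the differences of heme genes was not tested. *Alas1*, the rate-limiting enzyme of heme synthesis, had a log2 fold change of -0.67 ± 0.66 (SE), adjusted *p* = 0.469, and of -2.22 (adjusted *p* = 0.0116) among early-phase livers. With clock phase as a term in the fit of all livers it did not pass (-1.63, adjusted *p* = 0.11).

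The second comparison set the primary tumor against the pre-metastatic liver of the same 9 mice. The 60 members summed to 67.6 to 109 RPKM in the tumors, and 27 of them averaged under 0.1 RPKM, 10 averaged 1 RPKM or more, and 3 (*Cyp2b13*, *Cyp2d11* and *Cyp2g1*) had 0 counts in every tumor. Of 59 members tested (*Cyp4f39* was not), 51 were lower in the tumor, against 39.5% of the 19749 genes tested, and 6 were higher, against 43.8%. Members were chosen by their counts in the livers, whereas any gene could enter this fit through the tumors alone. The excess of lower members was therefore in part set by the choice, and no conclusion is drawn from these shares. Hepatocyte markers summed to 24.4 to 439 RPKM in the tumors, with M12 and M10 highest, and *Cyp2e1* was at 16.9 RPKM in tumor M12 and 12.7 in M10 against at most 2.21 in the other 7. The part of liver RNA in these tumor values was not tested. Scaling by library totals in place of TMM raised the median log2 fold change of all genes by 1.18, so log2 fold changes below are relative to TMM and smaller than the ratio of RPKM values.

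*Cyp2c55*, a P450 of the mouse colon, rose most in the tumor. It was at 12.5 to 24.9 RPKM (median 17.7) in the 9 tumors, at 0.128 to 0.705 RPKM (median 0.151) in pre-metastatic liver and at 0, 0.102, 0.233, 0.0473 and 0 RPKM in the control livers (tumor against pre-metastatic liver, log2 fold change 4.92 ± 0.32 (SE), adjusted *p* = 1.57e-11). *Cyp20a1*, which has no assigned substrate, was at 19.5 to 25.5 RPKM (median 21.96) in the tumors, the highest mean tumor level of any member, against 2.96 to 4.16 RPKM (median 3.72) in pre-metastatic liver (log2 fold change 1.41 ± 0.08 (SE), adjusted *p* = 1.82e-12). Neither gene's values overlapped between tumor and liver. *Cyp4f18* was at 1.14 to 2.52 RPKM (median 1.56) in the tumors (2.33 ± 0.29 (SE), adjusted *p* = 2.61e-07), and the leukocyte markers summed to 164 to 372 RPKM there. *Cyp26b1* was at 1.27 to 3.49 RPKM (median 2.66) (1.81 ± 0.52 (SE), adjusted *p* = 0.0032), all above the pre-metastatic livers. *Cyp39a1*, which was lower in pre-metastatic than in control liver, was at 3.83 to 8.59 RPKM (median 6.07) in the tumors, above every pre-metastatic liver (0.87 ± 0.32 (SE), adjusted *p* = 0.0166). In RPKM the tumors lay within the control range of 4.64 to 16.9 RPKM or just below it. That holds for RPKM alone, since tumor and control liver were not compared by a fit and the shift between scalings given above was not applied. *Cyp4f16* was at 6.95 to 9.78 RPKM (median 7.87) in the tumors (0.51 ± 0.15 (SE), adjusted *p* = 0.0039).

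**Figure D5:**
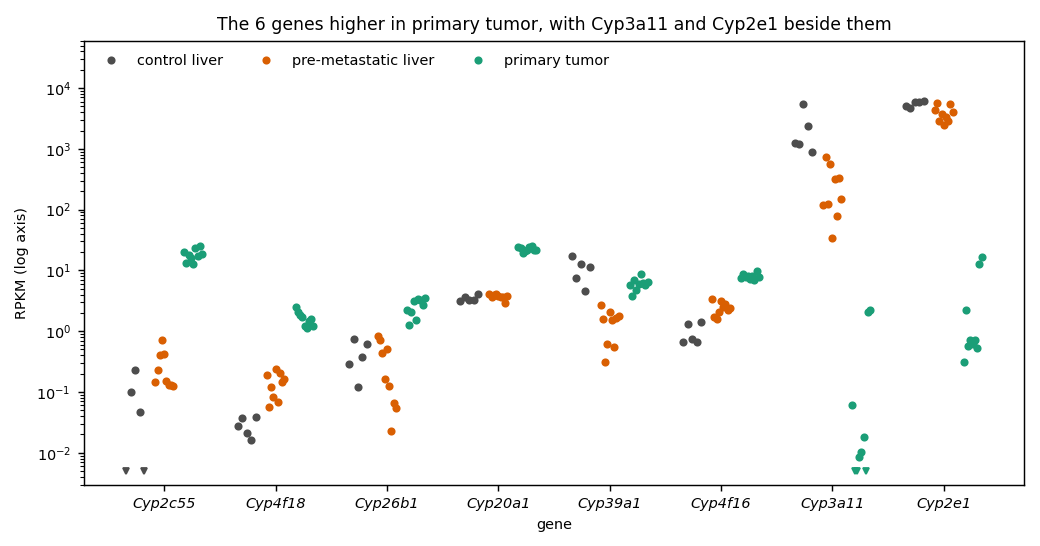
RPKM on a log axis of the 6 members higher in primary tumor than in pre-metastatic liver, with *Cyp3a11* and *Cyp2e1* for contrast, in 5 control livers (gray), 9 pre-metastatic livers (orange) and 9 tumors (green), and with triangles at the bottom for values under 0.005 RPKM. *Cyp2c55* sits at 12.5 to 24.9 RPKM in the tumors and under 1 RPKM in every liver, while *Cyp3a11* is at most 2.21 RPKM in the tumors.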

How the data were processed

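Poly(A) RNA of 23 libraries was analyzed: 5 control livers, 9 pre-metastatic livers, and 9 primary tumors. The authors deposited 1 table with the raw count of each gene in each library, not normalized, and the RPKM of the same genes. RPKM recomputed from the deposited counts, gene lengths and library totals differed by at most 1.75e-06 of a value. The submitters' processing notes name HISAT2, HTSeq 0.6.0 and the mm10 build. Whether counting used strand is not given in the sources used here, so overlapping genes on opposite strands cannot be told apart. Columns were matched to samples by mouse number and tissue code, and 0 value columns were left unused. All p values measure the spread between mice.

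Counts were tested with edgeR 4.0.16 in R 4.3.3 (TMM, quasi-likelihood, two-sided, Benjamini-Hochberg adjustment over all genes tested, threshold 0.05). Genes that reached 10 counts in 5 or more livers entered the fit of the livers, which left the tumors out, and those that passed over tumors and pre-metastatic livers entered the other fit. SE is the log2 fold change divided by the square root of the F statistic. DESeq2 1.42.0, limma 3.58.1 on log2(RPKM + 1), RLE factors, library totals only, other filters, clock phase, and leaving out each library were tried as alternatives. Liver and tumor of a mouse come from the same animal, so the tumor comparison was repeated with the mouse as a replicate block. As a check of the pairing, deviations from the group means over 14840 genes correlated by 0.0691 on average within a mouse (-0.05 to 0.192, above 0.1 in 2 of 9 mice) and by -0.00895 between mice. The edgeR steps were tested on simulated data. Python 3.11.15, numpy 2.4.6, pandas 2.3.3 and matplotlib 3.10.9 were used for summaries and plots. The members, the lists and the 5 motifs were chosen with earlier results of these data known, and the adrenal list, the scaling by library totals and the counts without overlap that leave out C6 were added after the values had been seen. Named members are the up to 12 largest falls and 12 largest rises past the threshold, the 8 highest in control liver, the members of the lists, and the up to 8 largest rises in the tumor, and named partners are the 10 largest changes past the threshold, of which 1 is not reported here. Others (*Por*, *Nr1i2*, *Nr1i3*, *Ahr*, *Alas1*, *Ahrr*, *Cyp2c68*, *Cyp2d11*, *Cyp3a13*, *Cyp4f39* and genes under the count minimum) were named after their values were seen. Each value rests on the count behind it.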

Additional observations from a re-analysis of the deposited data

Results flagged for a closer look

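For each named member, the highest or lowest liver or tumor of a group was compared with the rest of its group. In 18 of 90 groups that library stood apart by Dixon's criterion at the 95% level, where chance alone gives about 1 in 20 groups. Control liver C6 stood apart, with the highest value, for *Cyp2c69* (38.2 RPKM), *Cyp2c40* (11.4 RPKM) and *Cyp21a1* (30.1 RPKM). Control liver C7 was highest for *Cyp2b9* (93.4 RPKM), *Cyp2b13* (3.66 RPKM), *Cyp2a4* (26.3 RPKM), *Cyp2c44* (6.098 RPKM) and *Cyp2d26* (554 RPKM). Control liver C5 was highest for *Cyp2c29* (1055 RPKM), *Cyp3a59* (12.5 RPKM) and *Cyp3a44* (10.5 RPKM).

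Among pre-metastatic livers, M2 was highest for *Cyp2b10* (1.46 RPKM) and *Cyp3a59* (8.12 RPKM), M6 for *Cyp17a1* (6.096 RPKM), M8 for *Cyp2r1* (1.98 RPKM), M4 for *Cyp26a1* (12 RPKM) and M5 for *Cyp2c55* (0.705 RPKM), and M10 was lowest for *Cyp20a1* (2.96 RPKM). For *Cyp2b10*, *Cyp17a1* and *Cyp2r1*, the library that stood apart did not bring the control and pre-metastatic livers into overlap.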

How the results depend on the processing

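The counts of members lower (9 to 15) and higher (9 to 13) in pre-metastatic liver stayed within 1.5 times of 10 and 11 under DESeq2, RLE factors, library totals only, both other filters, limma and the phase term, and without any 1 liver (10 to 13 lower, 9 to 13 higher), but 16 were lower among early-phase livers. In the tumor, 51 members were lower and 6 higher under DESeq2, RLE factors and without any 1 mouse, and 7 were higher with library totals only. Without a filter, 58 were lower and 10 higher of 80 genes tested. The share of all genes was computed for both main fits, and in the livers for the early phase and library totals only. Counts under the other settings have no such share beside them, so they show stability and not a departure from all genes. With the mouse as a replicate block, 51 were lower and 6 higher, and no call of the 6 genes named as higher changed. Of the partners, limma called 3 higher (6 in edgeR). Among early-phase livers 13 were lower (against 10.7% of all genes), where 8 were over all livers. Without any 1 liver 5 to 10 were lower, the 5 being without C5 or without C6. Named genes that changed direction were not past the threshold over all livers, except *Cyp2c69*. Among early-phase livers the log2 fold changes were -1.83 for *Cyp2a5*, 1.86 for *Cyp2b9*, 1.36 for *Cyp2b13*, -0.0406 for *Cyp2a12* and -0.21 for *Cyp3a44*. With the phase term they were -1.31 for *Cyp2a5*, 0.57 for *Cyp2b9* and 0.27 for *Cyp2b13*. With limma they were -0.56 for *Cyp2a5*, 1.16 for *Cyp2b9*, 0.12 for *Cyp2b13* and -0.0163 for *Cyp2a12*. Leaving out 1 liver gave -5.95 to 0.13 for *Cyp2c69*, -3.64 to 2.28 for *Cyp21a1*, -1.08 to 0.27 for *Cyp2c40*, -0.18 to 0.58 for *Cyp2a5*, -0.72 to 3.18 for *Cyp2b9* and -0.45 to 2.38 for *Cyp2b13*. DESeq2 gave no adjusted p for *Cyp2c69*. Beyond the libraries named, the causes were not tested. Depth limits the members at low levels, since 6 of the 60 did not reach 10 counts in all 5 control livers.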

Other observations

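Some cytochrome P450 genes that had too few counts in the livers to be described above were present in the tumors. They were picked after their values had been seen, and no test is given. *Cyp2ab1* was at 0.566 to 1.98 RPKM in the 9 tumors (103 to 402 counts) and at most 0.0352 RPKM in 13 livers, C6 left out. *Cyp11a1*, which starts steroid synthesis by cutting the side chain of cholesterol, was at 0.0835 to 1.12 RPKM in the tumors and at most 0.0583 RPKM in these livers, against 11.7 RPKM in C6. *Cyp27b1*, the 1α-hydroxylase that activates vitamin D, was at 0.135 to 0.557 RPKM in the tumors and at most 0.0549 RPKM in the livers, while the 25-hydroxylase *Cyp2r1* was at 0.00368 to 0.0636 RPKM in the tumors and at 0.998 to 1.98 RPKM (median 1.32) in pre-metastatic liver. For each of the genes *Cyp2ab1*, *Cyp11a1* and *Cyp27b1*, every tumor was above these 13 livers.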
